A study of Mus musculus with 4 samples.

Results

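The 36 genes described here encode aminoacyl-tRNA synthetases, the enzymes that load each amino acid onto its tRNA before translation. They were picked by gene symbol from a list of synthetase names, and all 36 of them were found among the 24391 genes of the count table. The 20 genes without a 2 at the end of the symbol were taken as cytosolic and the 16 ending in 2 as mitochondrial. RNA-Seq was available for 4 libraries of Beko cells, a mouse leukemia pre-T line in which the Notch pathway is constitutively active. In the GSI group (n = 2), cells had spent 48 h with DAPT, a γ-secretase inhibitor (GSI) that prevents formation of the Notch intracellular domain. In the washout group (n = 2), the same 48 h of DAPT were followed by removal of the drug and 24 h of further culture. The labels give a dose of 10 mg/ml, whereas the methods of the study give the same figure in μg/ml. Both groups had therefore received the inhibitor. According to the methods, the inhibitor was also washed away and renewed at 24 h of these 48 h. No cells washed and cultured alike but put back into DAPT were available. The return of Notch signaling and the additional wash and culture therefore cannot be told apart. All libraries come from this single line, and nothing in the labels says that replicates were separate cultures, so that p-values measure only the spread between these libraries, which may be technical.

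Synthetases exist in separate cytosolic and mitochondrial sets, all encoded in the nucleus. Gars and Kars are known to supply both compartments from the same gene, Eprs carries the glutamate and the proline enzyme in a single chain, and the cytosolic phenylalanine enzyme is assembled from the products of Farsa and Farsb. A group of 8 cytosolic enzymes sits in the multisynthetase complex, held together by the scaffold proteins Aimp1, Aimp2 and Eef1e1. Atf4, the transcription factor of the amino acid and integrated stress response, is known to raise many cytosolic synthetase genes together with enzymes of amino acid synthesis and amino acid transporters.

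Between 13716199 and 36364200 reads had been counted on genes per library, and replicate 1 was the deeper library in both groups. The smallest count of any synthetase in any library was 153. Levels are given as CPM, the count of a gene relative to the total of its library in megareads, after this total was multiplied by its TMM normalization factor. As for the identity of the cells, all 10 pre-T cell markers examined were expressed. They summed to 6140 and 5448 CPM in the GSI libraries against 4486 and 4167 CPM after washout. At an adjusted p-value under 0.05 in edgeR, 2 of them were higher and 4 lower, against 27.0% and 25.4% of all genes tested. Their median log2 fold change was 0.0046, from -0.89 for Ptprc to 2.37 for Ptcra. The 5 B cell markers summed to at most 0.960 CPM in every library, with Pax5 and Ms4a1 at 0. The 7 myeloid and mast cell markers, of which Lyz2 and Fcer1a were at 0, summed to 324 and 205 CPM with GSI, as compared to 51.2 and 35.4 CPM in the washout libraries. The 4 stromal markers summed to 224 and 177 CPM under GSI and 68.5 and 66.0 CPM after removal of GSI, nearly all of it from Pecam1, which leukocytes can also express (221 and 174 CPM, then 67.1 and 64.4 CPM), and the 5 erythroid markers, with Hba-a1 and Hbb-b1 at 0, lay between 4.76 and 11.6 CPM. These other-lineage sums moved with the condition, and their part in the results on synthetases was not tested. In bulk RNA, more cells that express a gene and more RNA per cell cannot be told apart.

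Upon washout, the cytosolic synthetases rose nearly throughout. At an adjusted p-value under 0.05, 19 of the 20 genes were higher and 0 were lower in edgeR's quasi-likelihood test, also at an unadjusted p under 0.05 and with DESeq2. Over all 12266 genes tested, 27.0% were called higher and 25.4% lower. At the stricter criteria of the study, with a log2 fold change above 1 in addition, 12 of the 20 passed, against 7.74% of all genes. The median log2 fold change of the cytosolic set was 1.25, or 2.37-fold, and that of all genes was -0.01. The mitochondrial set moved less. Of its 16 genes, 9 were higher, 0 were lower and 7 did not pass, and 2 were past the stricter criteria. At an unadjusted p under 0.05 the numbers were 12 higher and 1 lower, the latter being Aars2, and DESeq2 called 9 higher and 0 lower. The mitochondrial median was 0.52, or 1.44-fold. Scaled to the total count alone, the median of all genes was at -0.21, the calls over all genes turned from 3315 higher and 3120 lower to 2315 higher and 4250 lower, and the medians of the cytosolic and mitochondrial genes were 1.05 and 0.32.

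**Figure D1:**
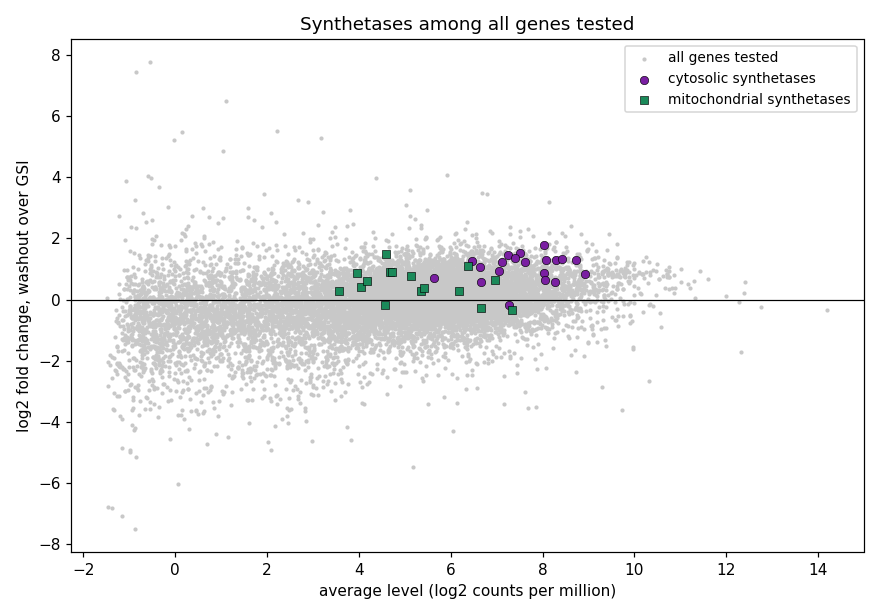
Each point is a gene tested, placed by its average level in log2 CPM (horizontal axis) and its log2 fold change of washout over GSI (vertical axis). The cytosolic synthetases (purple circles) lie above 0 except for 1 gene at -0.19, whereas the mitochondrial synthetases (green squares) spread from -0.33 to 1.503 at mostly lower levels.

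The summed level of the cytosolic genes was 2773 and 2924 CPM in the GSI libraries against 5860 and 6056 CPM after washout. In terms of all counted reads, this was a share of 0.299% and 0.311% in GSI and of 0.549% and 0.563% upon washout. The mitochondrial genes summed to 594 and 868 CPM with GSI, as compared to 901 and 935 CPM in the washout libraries. The gap between the GSI libraries came from Lars2, and without this gene the sums were 545 and 553 CPM against 755 and 793 CPM. Per length of the longest coding transcript, the cytosolic genes had a median of 42.1 CPM per kilobase (RPKM) in GSI and 89.3 RPKM upon washout, from Wars (13.1 and 21.3 RPKM) to Dars in GSI (112 RPKM) and Gars upon washout (205 RPKM). On the same scale the mitochondrial median was 11.4 RPKM in GSI and 16.2 RPKM upon washout, with Wars2 as the lowest gene (2.42 and 2.93 RPKM). By the median, the cytosolic enzymes were thus the more abundant messages in both groups of libraries. Single genes of the compartments overlapped. In GSI, Aars2 was at 32.7 RPKM and Aars at 31.5 RPKM, and upon washout Tars2 was at 34.1 RPKM, above Wars.

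Since the cytosolic genes moved together, their promoters were searched for 3 motifs on both strands: TGATGNAA, which matches elements bound by Atf4 with C/EBP partners, CACGTG, the E-box, and TGGGAA, the RBPJ motif of the study. RefSeq promoter sequences (GRCm38.p6, 250 bases before to 50 after the start) were given for 27 of the 36 genes, 13 cytosolic and 14 mitochondrial. None was given for Cars, Hars, Lars, Nars, Rars, Vars, Wars, Hars2 and Pars2. TGATGNAA was found in 5 of the 13 cytosolic promoters (38.5%) and in 0 of the 14 mitochondrial ones, and in 4.1% of all 27025 promoters of the table. CACGTG was found in 4 of the 13 cytosolic promoters (30.8%), in 1 of the 14 mitochondrial ones, that of Ears2, and in 7.2% of all promoters. TGGGAA was found in 2 of the 13, in 1 of the 14 and in 25.5% of all promoters. These shares are descriptions of short windows and of few genes, and a match of letters is not a bound site. The matches of TGATGNAA lie in Aars, Gars, Iars, Tars and Yars. For each gene 1 match is shown here with 11 bases on either side, on the strand that spells the motif, with the motif in capitals and the position of its first base on the gene strand relative to the start of the gene.
Aars at +10: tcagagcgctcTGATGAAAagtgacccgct
Gars at -30: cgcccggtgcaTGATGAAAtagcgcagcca
Iars at +8: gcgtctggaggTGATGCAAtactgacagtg
Tars at -15: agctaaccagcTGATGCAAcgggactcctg
Yars at +4: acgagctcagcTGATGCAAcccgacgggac

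Of the 5 matches shown, 3 read TGATGCAA and 2 read TGATGAAA, and all but that of Yars are on the strand opposite to the gene. Aars has a further match at -112 that is not shown, which reads TGATGCAA and is also on the opposite strand. All 5 genes were past the stricter criteria upon washout, as were 3 of the 8 cytosolic genes without a match, namely Eprs, Farsb and Mars, and 2 of the 14 mitochondrial genes, Yars2 and Tars2, which have none either. Over all genes tested, 7.74% were past these criteria in the upward direction. Nars and Lars, for which no promoter was given, are not part of these counts. The difference between genes with and without a match was not tested. The whole promoters of Yars2, Iars, Yars and Gars, the genes with the highest log2 fold changes among those with a given promoter, are printed on the gene strand with matches of any of the 3 motifs in capitals. In Iars both TGATGNAA and CACGTG occur, whereas Yars2, the highest of these genes, has no match of any motif. Lars2 is printed as a member of the pair with the widest difference, although its value rests on discordant GSI libraries, and has no match either. The regions in GRCm38.p6 are chr16:16302715-16303014 for Yars2, chr13:49681880-49682179 for Iars, chr4:129189653-129189952 for Yars, chr6:55037751-55038050 for Gars and chr9:123366677-123366976 for Lars2, all on the plus strand.
Yars2: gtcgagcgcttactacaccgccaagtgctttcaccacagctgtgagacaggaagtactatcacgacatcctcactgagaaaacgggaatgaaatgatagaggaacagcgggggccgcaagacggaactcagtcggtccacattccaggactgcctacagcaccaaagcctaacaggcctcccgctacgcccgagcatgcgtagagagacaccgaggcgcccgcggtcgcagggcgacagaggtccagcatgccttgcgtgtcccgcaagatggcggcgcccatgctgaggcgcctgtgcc
Iars: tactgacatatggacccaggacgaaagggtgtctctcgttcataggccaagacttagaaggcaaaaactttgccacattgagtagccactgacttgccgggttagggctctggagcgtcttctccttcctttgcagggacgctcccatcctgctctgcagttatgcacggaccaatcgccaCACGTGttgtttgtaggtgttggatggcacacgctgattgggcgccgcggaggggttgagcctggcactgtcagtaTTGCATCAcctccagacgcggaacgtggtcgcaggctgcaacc
Yars: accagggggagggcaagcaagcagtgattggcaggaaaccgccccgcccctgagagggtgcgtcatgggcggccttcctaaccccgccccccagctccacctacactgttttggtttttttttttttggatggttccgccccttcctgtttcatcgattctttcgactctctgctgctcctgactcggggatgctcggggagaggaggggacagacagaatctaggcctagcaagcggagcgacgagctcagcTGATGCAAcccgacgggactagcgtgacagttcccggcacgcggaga
Gars: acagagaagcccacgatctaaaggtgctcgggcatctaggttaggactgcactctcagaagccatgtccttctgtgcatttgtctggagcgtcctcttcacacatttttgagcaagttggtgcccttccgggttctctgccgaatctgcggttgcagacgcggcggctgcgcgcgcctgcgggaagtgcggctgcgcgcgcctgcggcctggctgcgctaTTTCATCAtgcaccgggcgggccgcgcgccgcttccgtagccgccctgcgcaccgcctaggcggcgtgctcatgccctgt
Lars2: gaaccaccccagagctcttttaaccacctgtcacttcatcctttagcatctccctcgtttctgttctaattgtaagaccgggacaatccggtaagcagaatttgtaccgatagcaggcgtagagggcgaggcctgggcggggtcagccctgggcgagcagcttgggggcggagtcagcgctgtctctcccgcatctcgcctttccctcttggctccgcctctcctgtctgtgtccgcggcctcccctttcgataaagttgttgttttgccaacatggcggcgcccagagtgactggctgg

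The highest cytosolic rise belonged to Nars, which charges tRNA with asparagine. Nars had 119 and 117 CPM under GSI and 408 and 403 CPM after removal of GSI. Replicates were nearly superimposed and the groups lay far apart, with a log2 fold change of 1.78 (SE 0.0957, adjusted p = 0.000294 in edgeR), higher than that of 98.9% of all genes tested. Lars, the leucine enzyme of the multisynthetase complex, had 97.6 and 92.0 CPM in the GSI libraries against 271 and 272 CPM after washout. Its log2 fold change was 1.52 (SE 0.0944, adjusted p = 0.000315). Iars, the isoleucine enzyme of the same complex (chromosome 13 from 49777469 to 49829636 in mm9), had 66.0 and 98.5 CPM with GSI, as compared to 192 and 255 CPM in the washout libraries. In each group of Iars replicate 2 was the higher library, yet the lowest washout library was still well above the highest GSI library. The log2 fold change of Iars was 1.45 with the widest error of the cytosolic set (SE 0.222, adjusted p = 0.00272).

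Yars charges tyrosine and its level was 87.3 and 101 CPM under GSI and 225 and 259 CPM after removal of GSI. Its log2 fold change was 1.36 (SE 0.123, adjusted p = 0.000534). Gars, the glycine enzyme of both compartments, had 193 and 197 CPM in the GSI libraries against 480 and 501 CPM after washout. The rise of Gars by 1.33 (SE 0.0993, adjusted p = 0.000363) made it the most abundant synthetase message per length upon washout. Eprs, which joins the glutamate and proline activities, had 239 and 247 CPM with GSI, as compared to 607 and 594 CPM in the washout libraries. The log2 fold change of Eprs was 1.31 (SE 0.102, adjusted p = 0.000397). For each of these genes both washout libraries exceeded both GSI libraries, as they did for 19 of the 20 cytosolic genes and for 38.2% of all genes tested.

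A second tier followed closely. Aars (alanine) was at 1.30 on the log2 scale, Tars (threonine) at 1.29, and Farsb, Rars (arginine) and Mars (methionine) at 1.25, 1.25 and 1.24. Cars (cysteine) was at 1.08 with 57.3 and 71.0 CPM under GSI and 124 and 147 CPM after removal of GSI, and was the last to pass a log2 fold change of 1, which became 0.88 with the total count alone. Below 1 were Hars (histidine) with 0.93, Kars (lysine) with 0.88, Vars (valine) with 0.84, Wars (tryptophan) with 0.71 and Sars (serine) with 0.64. Neighbors in this order differed by less than their standard errors, which ran from 0.0880 to 0.142, except at the steps from Mars to Cars, from Cars to Hars and from Vars to Wars. All of these genes passed the adjusted p-value in each of the 12 other fits. With offsets for the GC content and length of the transcript, Aars and Vars moved up to 1.78 and 1.28.

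The weakest changes of the cytosolic set were those of Farsa, Dars and Qars. Farsa, whose product is the catalytic partner of that of Farsb, had 80.7 and 81.8 CPM in the GSI libraries against 120 and 123 CPM after washout. Its log2 fold change of 0.58 (SE 0.0867, adjusted p = 0.00245) was less than that of Farsb, although both subunits enter the same enzyme. Dars, the aspartate enzyme of the complex, had 254 and 247 CPM with GSI, as compared to 411 and 330.0 CPM in the washout libraries. The washout libraries of Dars lay apart and its log2 fold change was 0.57 (SE 0.131, adjusted p = 0.0129). The call of Dars was lost with the total count alone (0.37, adjusted p = 0.0574), without GSI replicate 1 (0.58, adjusted p = 0.0594) and without GSI replicate 2 (0.56, adjusted p = 0.0592), the latter 2 with nearly the same log2 fold change.

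Qars stood apart from the other cytosolic genes. It encodes the glutamine enzyme of the multisynthetase complex and lies on chromosome 9 from 108410336 to 108418272 (mm9). Qars had 156 and 172 CPM under GSI and 143 and 145 CPM after removal of GSI. Both washout libraries were below both GSI libraries, which is the case for 39.1% of all genes tested, and the log2 fold change of -0.19 did not pass (SE 0.0964, adjusted p = 0.142 in edgeR). With the total count alone it was -0.39 (adjusted p = 0.0145), and over all fits it ranged from -0.39 to -0.11. The next lowest cytosolic gene, Dars, was at 0.57.

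**Figure D2:**
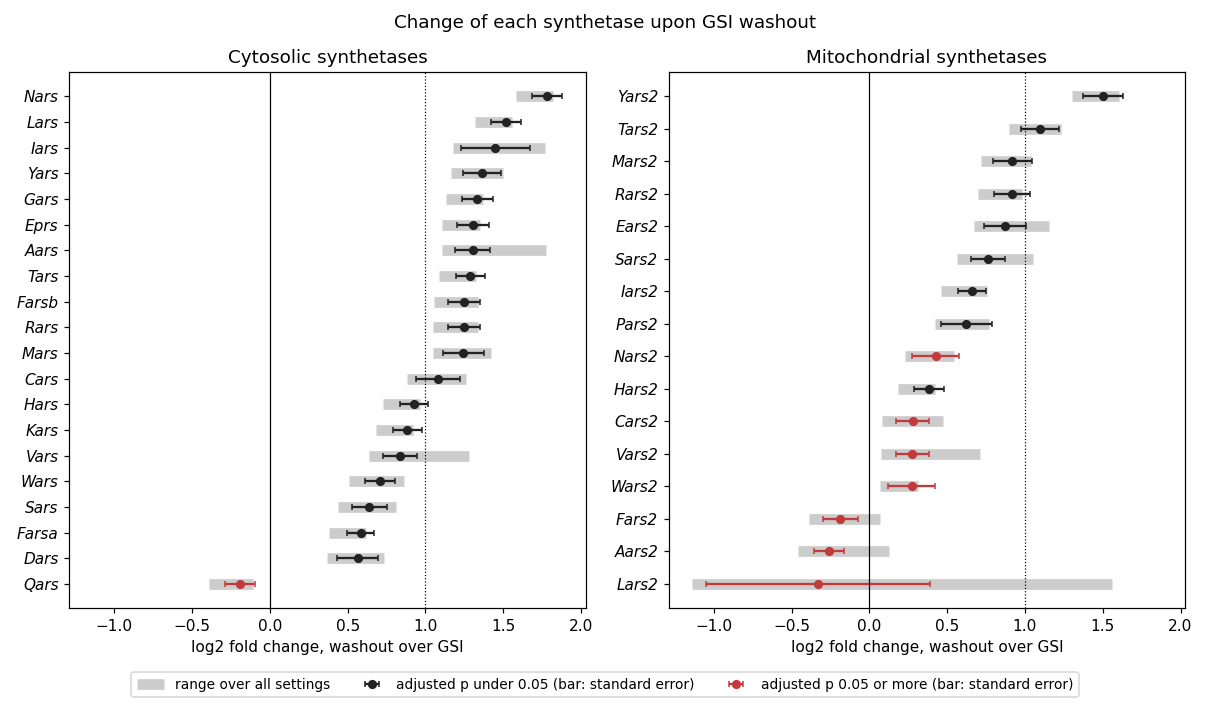
Log2 fold change of washout over GSI (horizontal axis) for each of the 20 cytosolic (left) and 16 mitochondrial genes (right), with standard errors as thin bars and, in gray, the range over this fit and the 12 other fits (8 of all libraries and 4 with 1 library left out). Black points passed the adjusted p-value and red points did not, and the dotted line marks 1. Qars is the only red point on the left, and Lars2 has a range from -1.14 to 1.56.

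The cytosolic genes were also described by what their products share. Of the 8 enzymes of the multisynthetase complex, 7 were higher with a median log2 fold change of 1.25, and of the 12 cytosolic genes outside it, all 12 were higher with a median of 1.16. Among the genes of class I enzymes 8 of 9 were higher with a median of 1.24, and among those of class II 10 of 10 with a median of 1.09. Eprs, which has a domain of each class, was left out of this split. Of the 12 genes commonly named as Atf4 targets, all 12 were higher, 10 were past the stricter criteria and the median was 1.31, from Sars to Nars. Of the other 8 cytosolic genes, 7 were higher, 2 were past the stricter criteria, namely Farsb and Rars, and the median was 0.86. Against the background of 27.0% of all genes called higher and 7.74% past the stricter criteria, complex membership and enzyme class gave similar shares. The 12 Atf4 targets were named from general knowledge and the difference between these groups was not tested.

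Among the mitochondrial synthetases, Yars2, the tyrosine enzyme, rose most. Its gene spans 16303058 to 16309733 of chromosome 16 (mm9). Yars2 had 11.8 and 13.4 CPM in the GSI libraries against 34.4 and 36.5 CPM after washout. With a log2 fold change of 1.503 (SE 0.128, adjusted p = 0.000462 in edgeR) it lay between Lars and Iars of the cytosolic set, from a much lower level. Tars2, the threonine enzyme, had 48.7 and 57.6 CPM with GSI, as compared to 106 and 121 CPM in the washout libraries, giving a log2 difference of 1.10 (SE 0.123, adjusted p = 0.000943). Mars2, which charges methionine, had 16.4 and 19.2 CPM under GSI and 33.5 and 33.5 CPM after removal of GSI, and Rars2, which charges arginine, had 19.1 and 17.5 CPM in the GSI libraries against 35.5 and 33.6 CPM after washout. Both genes came to a log2 fold change of 0.92, with adjusted p-values of 0.00187 and 0.00143. Ears2 (glutamate), Sars2 (serine) and Iars2 (isoleucine) rose by 0.87, 0.76 and 0.66.

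The calls of the genes next in order were less firm. Pars2, the proline enzyme, had 13.0 and 15.7 CPM with GSI, as compared to 20.04 and 24.03 CPM in the washout libraries, with a log2 fold change of 0.62 (SE 0.165, adjusted p = 0.0204). The call of Pars2 was lost with the total count alone (0.42, adjusted p = 0.0672), with libraries thinned to the smallest total (0.53, adjusted p = 0.0578), without GSI replicate 1 (0.48, adjusted p = 0.126) and without washout replicate 2 (0.51, adjusted p = 0.0550). Hars2, the histidine enzyme, had 37.2 and 36.5 CPM under GSI and 48.6 and 47.6 CPM after removal of GSI. Its replicates lay close together and its log2 fold change was 0.38 (SE 0.0956, adjusted p = 0.0166), but the call was lost with the total count alone (0.18, adjusted p = 0.150). It was also lost at nearly the same log2 fold change without GSI replicate 1 (0.39, adjusted p = 0.0950) and without GSI replicate 2 (0.38, adjusted p = 0.0941).

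Of the 7 mitochondrial genes that did not pass, 4 had positive values. Nars2, the asparagine enzyme, had 15.2 and 13.0 CPM in the GSI libraries against 20.1 and 17.7 CPM after washout, giving a log2 difference of 0.43 (adjusted p = 0.0550). Cars2 (cysteine) had 37.8 and 36.3 CPM with GSI, as compared to 47.4 and 42.3 CPM in the washout libraries, giving a log2 difference of 0.28 (adjusted p = 0.0700). Vars2 (valine) had 67.4 and 63.6 CPM under GSI and 74.3 and 84.7 CPM after removal of GSI, giving a log2 difference of 0.28 (adjusted p = 0.0674). These 3 genes lay just beyond the threshold and were called higher in other fits, with log2 fold changes from 0.23 to 0.54 for Nars2, from 0.08 to 0.47 for Cars2 and from 0.08 to 0.71 for Vars2. With the replicate number as a block, their adjusted p-values were 0.00447, 0.00796 and 0.00759. The value of 0.71 for Vars2 came with offsets for GC content and length (adjusted p = 0.000797). Wars2, the tryptophan enzyme and the lowest in level, had 10.9 and 10.5 CPM in the GSI libraries against 12.6 and 13.2 CPM after washout, giving a log2 difference of 0.27 (SE 0.150, adjusted p = 0.175).

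Aars2 and Fars2 had negative values. Aars2, the alanine enzyme, had 105 and 114 CPM with GSI, as compared to 88.7 and 94.1 CPM in the washout libraries, with a log2 fold change of -0.26 (SE 0.0952, adjusted p = 0.0589). Fars2, the phenylalanine enzyme, had 25.8 and 24.3 CPM under GSI and 22.0 and 22.1 CPM after removal of GSI, with a log2 fold change of -0.19 (SE 0.114, adjusted p = 0.216). In both genes the washout libraries were below the GSI libraries. The sign was not kept with offsets for GC content and length, where Aars2 was at 0.12 (adjusted p = 0.183) and Fars2 at 0.07 (adjusted p = 0.606), whereas the total count alone gave -0.46 (adjusted p = 0.00754) and -0.39 (adjusted p = 0.0315). Aars2 was also called lower with the replicate number as a block (-0.26, adjusted p = 0.00642) and with at least 10 counts in every library (-0.30, adjusted p = 0.0367).

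Lars2, the leucine enzyme of the mitochondria (chromosome 9 from 123276058 to 123371782 in mm9), could not be read as a change. It had 49.1 and 315 CPM in the GSI libraries against 146 and 142 CPM after washout. The washout libraries were close to each other and lay between the GSI libraries, which differed by 6.42 times. The log2 fold change was -0.33 (SE 0.721, adjusted p = 0.723). It was -1.14 without GSI replicate 1 (adjusted p = 0.00280) and 1.56 without GSI replicate 2 (adjusted p = 0.000617), so that the sign depended on the library left out. Beside it, Rn45s, the ribosomal RNA precursor, made up 1.84% and 2.69% of the counts in GSI and 1.44% and 1.66% upon washout. Rn45s was likewise highest in GSI replicate 2, and its part in the value of Lars2 was not tested.

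**Figure D3:**
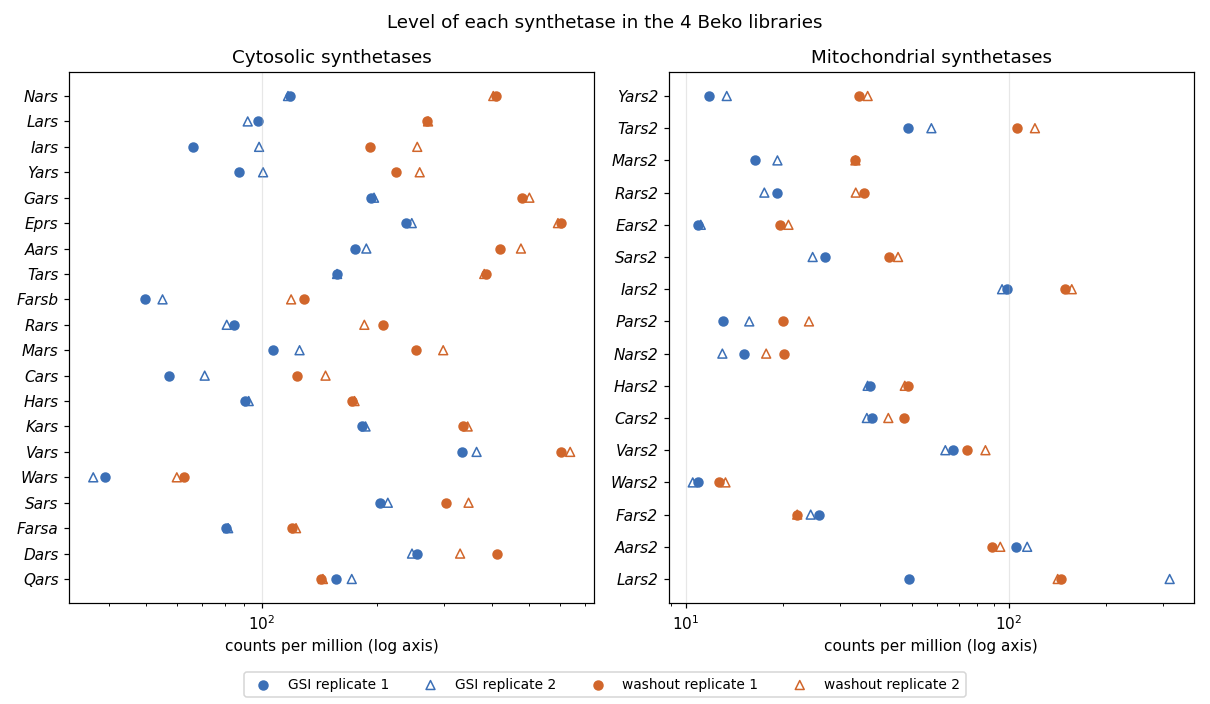
Level of each gene in CPM (horizontal log axis) in the GSI libraries (blue) and the washout libraries (orange), with replicate 1 as filled circles and replicate 2 as open triangles. Genes are ordered by log2 fold change. Both washout libraries lie above both GSI libraries in 19 cytosolic and 13 mitochondrial rows. They lie below in the rows of Qars, Aars2 and Fars2. Over all genes tested, the shares are 38.2% above and 39.1% below. In the row of Lars2, GSI replicates 1 and 2 lie at 49.1 and 315 on either side of the washout libraries.

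A direct comparison of the compartments was made by amino acid, in 17 pairs of a cytosolic and a mitochondrial enzyme. Eprs and Fars2 each enter 2 of these pairs. In 15 pairs the cytosolic gene had the higher log2 fold change and in 2 the mitochondrial gene, and the median difference was 0.56. The ratio of cytosolic over mitochondrial level within a library was higher in both washout libraries than in both GSI libraries in 13 pairs. It was lower in 1 pair. Among single genes, both washout libraries were above both GSI libraries for 38.2% of all genes tested and below for 39.1%. No such share was computed for ratios of other gene pairs, so these counts have no background of their own. With 2 libraries against 2, an exact permutation test of such a ratio cannot go below p = 0.333 (two-sided), so the pairs are given without a test.

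The widest gap was that of Lars and Lars2 (1.85), which rests on the discordant GSI libraries of Lars2. Next were Aars and Aars2, where the log2 ratio was 0.74 and 0.72 in GSI and 2.24 and 2.34 upon washout. The alanine enzymes thus showed a difference of 1.57 between compartments with close replicates. Farsb and Fars2 differed by 1.44, Farsa and Fars2 by 0.77. For asparagine, the log2 ratio of Nars over Nars2 was 2.96 and 3.17 in GSI and 4.34 and 4.50 upon washout. Threonine and serine had ratios that overlapped between the groups, with differences of 0.19 and -0.12. For tyrosine the order was turned around, with Yars2 above Yars by 0.14, where the standard errors were 0.123 for Yars and 0.128 for Yars2. The log2 ratio of Yars over Yars2 was 2.88 and 2.91 in GSI and 2.70 and 2.82 upon washout.

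**Figure D4:**
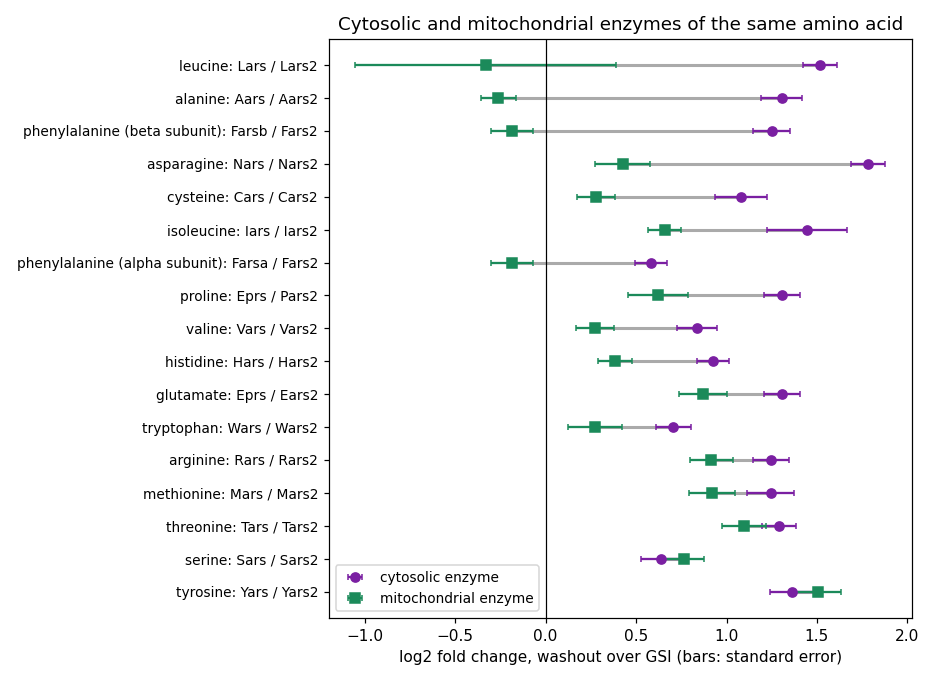
Log2 fold change of washout over GSI (horizontal axis) for the cytosolic enzyme (purple circles) and the mitochondrial enzyme (green squares) of the same amino acid, with standard errors as bars and pairs ordered by their difference. The cytosolic gene lies to the right in 15 of 17 pairs, and the gap closes toward threonine, serine and tyrosine.

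Genes that work with the synthetases were taken from lists of general knowledge. The 3 scaffolds of the multisynthetase complex were all higher: Eef1e1 by 1.65, Aimp2 by 1.52 and Aimp1 by 0.60 on the log2 scale. Of 35 tested genes for tRNA processing, modification and export, 29 were higher, 14 of them past the stricter criteria, and 6 did not pass, with a median of 0.91. Among these, Adat2 had the lowest value (-0.25, not passing) and Mettl1, which methylates tRNA together with Wdr4, the highest (2.40). Both the scaffold and the tRNA processing genes thus exceeded the background share of 27.0% called higher. Over all genes, 7.74% were past the stricter criteria in the upward direction.

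Atf4 and its targets outside the synthetases moved less uniformly. Of 19 tested genes 11 were higher, 9 of them past the stricter criteria, 1 was lower and 7 did not pass, with a median of 1.35. Over all genes, 27.0% were higher, 25.4% lower and 7.74% past the stricter criteria in the upward direction. Eif4ebp1, an inhibitor of translation initiation, was the highest with 2.33 and Sesn2, a stress-induced regulator of mTORC1, the lowest with -1.13. Atf4 itself, given because the list is built on it, had 163 and 181 CPM with GSI, as compared to 373 and 506 CPM in the washout libraries, giving a log2 difference of 1.35 (SE 0.165, adjusted p = 0.00123). Its washout replicates differed more than those of Nars, Lars or Gars. Ddit3, another member of this response, had a log2 fold change of -0.16 (adjusted p = 0.423). It is named here after its value was seen, because it shares 68 exon bases with Mars on the other strand.

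Several synthetase genes share exon bases with a neighbor on the opposite strand in the mm9 annotation. Iars2 overlaps Rab3gap2 by 2018 bases, and Vars and Farsb overlap a neighbor by 304 and 265 bases. Hars and Hars2 overlap each other by 195 bases, and shorter overlaps affect Ears2 and Yars. The strand setting of the counting is not given in the sources used here, so that the values of these genes may include reads of the neighbor.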

How the data were processed

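RNA-Seq of 4 Beko libraries was used. According to the methods, the authors used trimGalore for trimming, HISAT2 2.2.1 for alignment to mm9, and summarizeOverlaps with an iGenomes GTF for counting per gene. What they deposited are raw counts, without normalization or filtering, in 1 column per library, and every column was used. Overlap mode and strand setting are not given in the sources used here.

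Washout was compared with GSI over the whole table in edgeR 4.0.16 (R 4.3.3) by the quasi-likelihood test, after filterByExpr and with TMM factors. No covariate was used, and Benjamini-Hochberg adjustment covered 12266 genes. Genes were called at an adjusted p under 0.05, and at the stricter criteria with a log2 fold change above 1 or below -1. Standard errors are the log2 fold change divided by the root of F. Other fits used DESeq2 1.42.0, RLE factors, the total count, no filter, at least 10 counts in every library, a replicate block, thinned libraries, and offsets for GC content and length (86.0% of tested genes, GENCODE vM1 longest coding transcripts). Each library was also left out in turn, which assumes that the lone replicate varies like the other group. The scripts were tested on simulated data.

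Members and lists were chosen with earlier results of these data known. Values per library are given for the 6 highest and 3 lowest cytosolic and the 4 highest and 4 lowest mitochondrial genes. They are also given for those whose call or sign changed in another fit of all libraries, and for the pair that differed most. From the pre-T cell markers, the tRNA processing genes and the Atf4 targets outside the synthetases, the highest and lowest gene are named. Some items, among them 1 list of charging genes, are not reported here. Cars was added as the lowest gene above a log2 fold change of 1. The scaffolds are given in full.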

Additional observations from a re-analysis of the deposited data

How the results depend on the processing

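Of 36 synthetase genes, 26 kept their sign and their side of the threshold in all 8 other fits of the 4 libraries, and 29 did so with each library left out in turn. The number of cytosolic genes called higher was 18 with the total count and 19 in the other 7 fits. With the total count alone, 1 cytosolic gene (Qars) and 2 mitochondrial genes were called lower, 1 mitochondrial gene was past the stricter criteria, and the cytosolic and mitochondrial medians were 1.05 and 0.32. Without a filter, with at least 10 counts in every library and with the replicate block, 1 mitochondrial gene was called lower in each, Lars2 in the first and Aars2 in the other fits. Without a filter, the standard error of Lars2 was 0.124, close to that of Farsa (0.122), against 0.721 with the filter. That call of Lars2 thus does not measure the spread of its GSI libraries (49.1 and 315 CPM). Thinning gave a mitochondrial median of 0.47. Offsets for GC content and length gave a mitochondrial median of 0.71 and 4 mitochondrial genes past the stricter criteria, and turned the sign of Aars2 (0.12) and Fars2 (0.066). The cause was not tested.

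With 1 library left out, the cytosolic genes called higher were 18 to 19 and 11 to 12 past the stricter criteria with 0 lower, with a median from 1.149 to 1.277. The mitochondrial genes called higher were 7 to 10, 1 to 4 past the stricter criteria, and 0 to 1 lower, with a median from 0.51 to 0.68. Over all genes, 2202 to 3334 were called higher and 2028 to 2815 lower, fewest without GSI replicate 1. The cause was not tested. Lars2 was at -1.14 without GSI replicate 1, at 1.56 without GSI replicate 2 and at 0.20 with the replicate block. Replicates with the same number correlated at 0.497 in their deviations, but with 2 pairs the samples share only a number and nothing says that they are paired. The replicate block left the cytosolic calls at 19 and took the mitochondrial genes called higher from 9 to 12 and the genes called overall to 4243 higher and 4216 lower. After thinning to the smallest library, 8 mitochondrial genes were called higher, against 9 at full depth. An effect of depth was not tested.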

Other observations

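The difference of Lars2 between the GSI libraries was set beside that of all genes after it had been seen. Among the 4866 genes with an average above 50 CPM, the ratio of GSI replicate 2 to GSI replicate 1 was highest for Lars2 (6.42), followed by Rn4.5s, a small repetitive RNA (2.97), Narf (1.97), P4ha1 (1.88) and Hsph1, a heat shock protein (1.77). Mir6236 (1.68) and the small nucleolar RNAs Snord22 (1.67) and Snord15a (1.66) are also among the highest 10. No other synthetase is among them.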
